A study of Mus musculus with 9 samples.

Results

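The enzymes described here are those of the mitochondrial citrate cycle and of the reactions that feed it or draw from it: pyruvate entry, the malate-aspartate shuttle and transaminases, ketone use and proline breakdown. They were chosen by name as 29 genes, of which 28 were measured among the 19505 genes named on the arrays, each by 1 probe set (a set of array probes read together as 1 value). Glud1, glutamate dehydrogenase, was not analysed here. The study profiled RNA of whole tibialis anterior, a muscle at the front of the shin made mostly of fast fibres, on Affymetrix Clariom S mouse arrays. There were 3 arrays of MCU knockout muscle (genotype MCU-/-/MCUb+/+), 3 of MCUb knockout muscle (MCU+/+/MCUb-/-) and 3 of control muscle (MCU+/+/MCUb+/+). All mice were 2 months old and of strain C57/BL6. MCU is the pore of the uniporter, the channel that carries calcium into the mitochondrial matrix, and MCUb is its paralogue in the same complex. How either gene was deleted, in which cells, and the sex of the mice are not given in the sources used here.

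The citrate cycle oxidises acetyl groups in the mitochondrial matrix and passes their electrons to the respiratory chain. Pyruvate dehydrogenase supplies acetyl-CoA from sugar, and pyruvate carboxylase, transaminases and proline oxidation add or remove cycle intermediates. Matrix calcium activates isocitrate dehydrogenase 3 and oxoglutarate dehydrogenase directly and pyruvate dehydrogenase through its phosphatase, which is why these enzymes are often studied together with the uniporter. These are controls on enzyme activity, which RNA arrays do not measure.

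The 4 promoter windows below belong to Bdh1, the member with the smallest p-value in these data, and to Idh2, Got1 and Mdh1, which were low together on the same 3 arrays. Each is the 250 bases before a RefSeq transcript start on GRCm38.p6, read 5′ to 3′ on the gene's strand. Capitals mark matches, on either strand, to AAGGTCA (the half-site of estrogen-related receptors), GGGCGG (the GC box) or CCAAT (the CCAAT box), and no matches overlapped in these windows. Bdh1 lies at chr16:31422047-31422296 on the plus strand and is the first of 2 listed starts. Idh2 lies at chr7:80115351-80115600, Got1 at chr19:43524606-43524855 and Mdh1 at chr11:21571935-21572184, all on the minus strand.
Bdh1: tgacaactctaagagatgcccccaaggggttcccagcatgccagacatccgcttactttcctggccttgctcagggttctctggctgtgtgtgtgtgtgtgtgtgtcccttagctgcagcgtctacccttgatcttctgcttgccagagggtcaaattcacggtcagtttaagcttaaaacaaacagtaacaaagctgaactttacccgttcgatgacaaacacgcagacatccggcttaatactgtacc
Idh2: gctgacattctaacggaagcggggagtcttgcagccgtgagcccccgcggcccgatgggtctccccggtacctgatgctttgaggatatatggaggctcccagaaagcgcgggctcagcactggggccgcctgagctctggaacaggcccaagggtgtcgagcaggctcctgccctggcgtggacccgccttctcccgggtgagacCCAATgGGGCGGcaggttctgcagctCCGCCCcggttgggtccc
Got1: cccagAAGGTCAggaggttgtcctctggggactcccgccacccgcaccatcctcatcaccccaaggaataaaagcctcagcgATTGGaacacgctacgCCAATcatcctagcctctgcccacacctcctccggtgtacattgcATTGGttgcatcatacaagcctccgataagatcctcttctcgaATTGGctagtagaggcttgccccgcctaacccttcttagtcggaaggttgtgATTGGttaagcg
Mdh1: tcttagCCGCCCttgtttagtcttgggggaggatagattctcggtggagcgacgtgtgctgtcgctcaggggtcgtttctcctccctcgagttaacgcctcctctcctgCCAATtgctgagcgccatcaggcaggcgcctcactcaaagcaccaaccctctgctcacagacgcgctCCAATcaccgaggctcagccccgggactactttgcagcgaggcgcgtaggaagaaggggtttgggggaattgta

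These letters are a description and not evidence of binding. The Bdh1 window held none of the 3 motifs, the Idh2 window held 2 GC boxes and 1 CCAAT box, the Got1 window held 1 half-site and 5 CCAAT boxes, and the Mdh1 window held 1 GC box and 2 CCAAT boxes. Windows were found for 26 of the 29 genes; Acat1, Idh3a and Gpt had no entry. A gene can have several starts, and these 26 had 33 windows. The receptor half-site was in 1 of the 33 windows (3.03%, Got1), against 4.08% of all 32851 windows. A GC box was in 16 (48.5%), against 32.7% of all windows, and a CCAAT box in 15 (45.5%), against 33.8%. Base composition also differed: it was 59.3% G and C in the members' windows and 53.2% in all windows. Its part in the GC box count was not tested.

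Values are read as log2 levels. The array carries 23 background features, and a value over their 95th percentile on its own array (5.87 to 5.92) is called above background. Of the 28 measured members, 26 were above background on at least 3 arrays. Dlst, the transferase subunit of oxoglutarate dehydrogenase, was not above background on any array, with levels from 5.67 to 5.86. Sucla2, the ATP-forming subunit of succinyl-CoA ligase, was above it on control replicate 3 alone, so no fold is given for either gene.

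The arrays were alike in depth of signal, with 45.3% to 45.9% of probe sets above background. Mcu had log2 levels of 6.80, 6.98 and 7.06 in MCU knockout muscle, 10.71, 11.06 and 10.81 in MCUb knockout muscle and 10.38, 10.96 and 10.46 in control muscle, so its transcript was low in the arrays labelled MCU knockout and in no others. Mcub was not analysed here, which leaves the MCUb knockout label without a check on its own transcript. All 9 muscle fibre markers were above background, with a summed level between 21.81 and 22.15 on the log2 scale. Of the liver and adipocyte markers, 0 of 4 and 0 of 5 were above background on 3 or more arrays. The summed adipocyte level was 8.23 on control replicate 3, which had the lowest fibre sum, and 6.97 to 7.35 on the other arrays. Adipoq and Retn were above background on control replicate 3 alone, at 6.75 and 6.60. The lowest mean correlation with the other arrays was that of control replicate 3, at 0.978, with the others between 0.985 and 0.988. The Y-linked genes Uty and Kdm5d averaged 3.58, 7.56 and 7.24 in MCU knockout muscle, 7.80, 3.01 and 3.58 in MCUb knockout muscle and 3.49, 3.12 and 3.89 in control muscle. They were thus above background on MCU knockout replicates 2 and 3 and MCUb knockout replicate 1, and on no control array. In whole muscle, fewer cells of a type and less RNA per cell cannot be told apart.

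**Figure D1:**
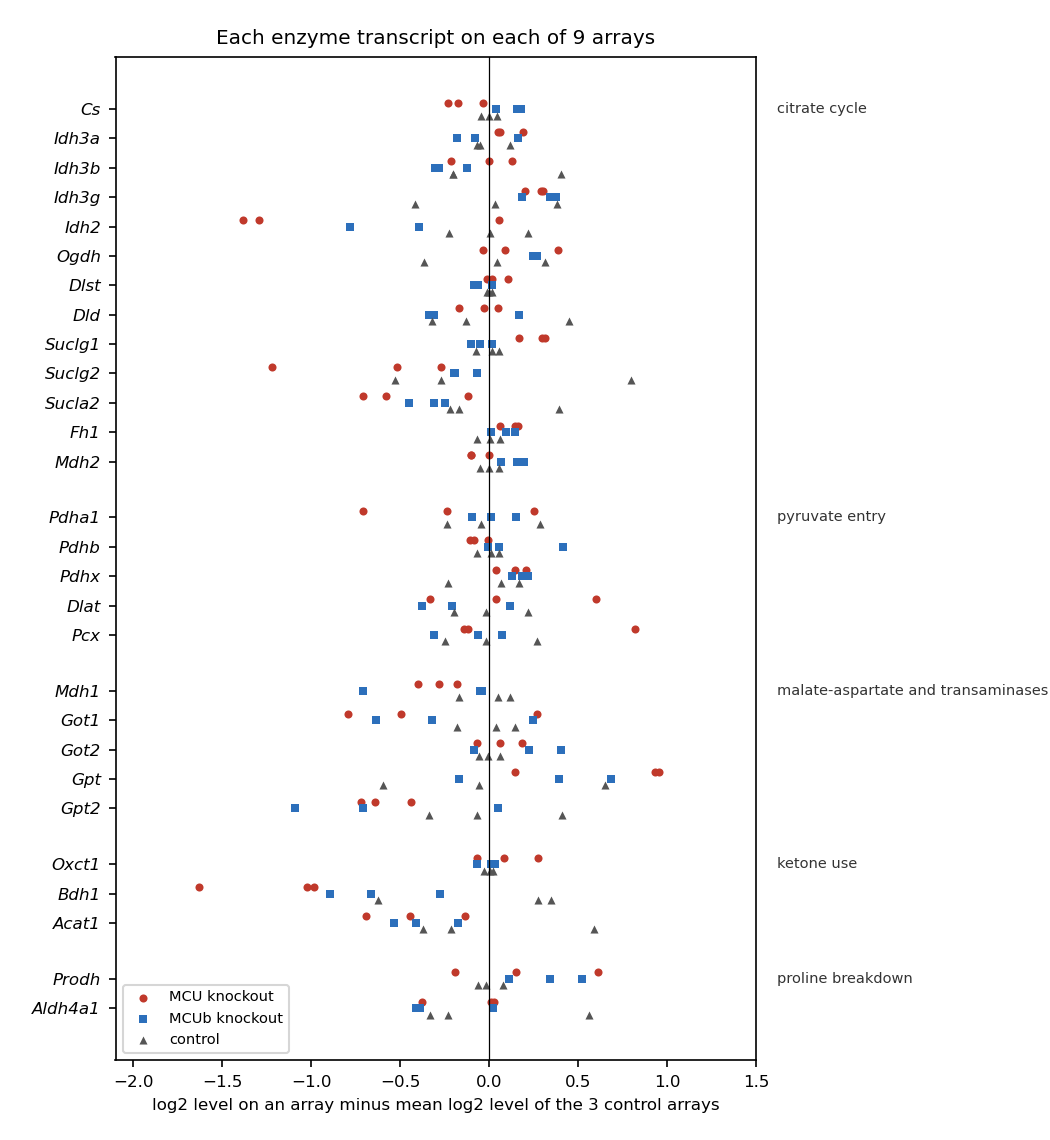
Deviation of each measured member from its control mean (log2, x axis) on each of the 9 arrays, with members down the page by role and the points of MCU knockout, MCUb knockout and control drawn in that order. Most points lie close to 0, and Bdh1 and Idh2 have the MCU knockout points farthest below it.

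The first comparison asked whether loss of MCU changed the RNA of these enzymes. None of the 28 members passed an adjusted p of 0.05 between MCU knockout and control muscle, in a test that called 0.14% of all probe sets. At an unadjusted p under 0.05 there were 2 members, Bdh1 and Idh2, both lower in MCU knockout muscle. That is 7.14% of the members against 10.1% of all 22206 probe sets (5.35% lower, 4.76% higher). The members' median log2 change was −0.04, with 15 lower and 13 higher, and the median over all probe sets was −0.02. The median size of a change, regardless of sign, was 0.17 for the members and 0.21 for all probe sets. The groups did not overlap in 4 members (Suclg1 higher; Mdh1, Gpt2 and Bdh1 lower), or 14.3%, against 13.4% of all probe sets (7.33% lower, 6.08% higher).

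How far these arrays limit a change can be read from the intervals. In 22 of the 28 members (78.6%) the 95% interval of the change lay inside a 2-fold difference either way, against 78.3% of all probe sets and 69.2% of those above background on 3 or more arrays. The 22 include Dlst and Sucla2, which were not above background on 3 arrays. Their intervals do not limit a change in RNA. Whether each array of a group is a different animal is not in the labels. The intervals and p-values therefore reflect how these samples scatter, which may be technical.

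Bdh1 is the mitochondrial 3-hydroxybutyrate dehydrogenase, which turns the ketone body 3-hydroxybutyrate into acetoacetate. Its probe set (TC1600000409.mm.2, chromosome 16) read 7.20, 7.85 and 7.81 in MCU knockout muscle, 8.17, 7.94 and 8.56 in MCUb knockout muscle and 9.11, 8.21 and 9.18 in control muscle. All 3 MCU knockout arrays lay below all MCUb knockout and control arrays, and control replicate 2 lay within the range of MCUb knockout muscle. The MCU knockout mean of 7.62 ± 0.36 against 8.83 ± 0.54 in control muscle (SD, n = 3 each) is a log2 change of −1.21 (SE 0.29, 95% interval −1.86 to −0.57), or 2.32-fold lower. Its unadjusted p was 0.00163 and its adjusted p in limma 0.248. The exact two-sided permutation test gave 0.1, the smallest p that 3 arrays against 3 can reach. Without control replicate 2 the log2 change was −1.52 with an adjusted p of 0.0454, the 1 alternative in which a member passed; over all 20 alternatives the change lay between −1.63 and −1.0 and the adjusted p between 0.0454 and 0.883.

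The other ketone enzymes gave smaller values. Oxct1, the succinyl-CoA transferase that commits ketone bodies to use outside the liver, averaged 17.57 ± 0.17 in MCU knockout muscle and 17.47 ± 0.03 in control muscle (SD, n = 3 each), a log2 change of 0.10 (SE 0.17, 95% interval −0.26 to 0.47). Acat1, the thiolase that splits acetoacetyl-CoA, averaged 11.59 ± 0.28 in MCU knockout muscle and 12.01 ± 0.51 in control muscle, a log2 change of −0.42 with an adjusted p of 0.609. Its control values were 11.80, 11.64 and 12.60, so control replicate 3 alone lay above the highest knockout value of 11.88.

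Idh2 is the NADP-linked isocitrate dehydrogenase of the matrix, which supplies NADPH there. Its probe set (TC0700003581.mm.2, chromosome 7) read 15.37, 13.93 and 14.02 in MCU knockout muscle, 14.53, 14.92 and 14.92 in MCUb knockout muscle and 15.53, 15.09 and 15.32 in control muscle. MCU knockout replicate 1 lay among the controls, and the other 2 MCU knockout arrays were more than 1 log2 unit below them. The log2 change between MCU knockout and control was −0.87 (SE 0.34, 95% interval −1.61 to −0.13, unadjusted p 0.0251, adjusted p 0.43), and the exact two-sided permutation p was 0.3.

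The Idh2 values followed the Y-linked level in part. The 3 arrays with Uty and Kdm5d above background were the 3 lowest for Idh2, and the highest of them lay 0.39 below the lowest of the other 6. With that level as a covariate the change between MCU knockout and control was −0.36 (adjusted p 0.807), and over only the arrays with a low Y-linked level it was 0.06 (SE 0.30, adjusted p 0.997). Without MCU knockout replicate 1 it was −1.33 (adjusted p 0.0525). Between MCUb knockout and control the Idh2 change was −0.52 without the covariate, −0.27 with it and −0.39 over the low arrays. MCUb knockout replicates 2 and 3, both low in Y-linked level, read 14.92 each, below every control array. No control array had a high Y-linked level, so the covariate cannot fully separate that level from genotype. For Bdh1 the covariate gave −1.42 (adjusted p 0.432) and the low arrays alone −1.63 (SE 0.45, adjusted p 0.883), on 1 MCU knockout array.

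Got1, Mdh1 and Acat1 were also lower on those 3 arrays than on each of the other 6, with gaps of 0.17, 0.11 and 0.03. Got1, the cytosolic aspartate transaminase of the shuttle, read 16.23, 15.17 and 15.47 in MCU knockout muscle, 15.33, 16.21 and 15.64 in MCUb knockout muscle and 16.00, 16.11 and 15.78 in control muscle. Mdh1, the cytosolic malate dehydrogenase, read 16.54, 16.32 and 16.44 in MCU knockout muscle, 16.01, 16.68 and 16.67 in MCUb knockout muscle and 16.84, 16.55 and 16.77 in control muscle. Together 4 of 28 members (14.3%) were lower on the 3 arrays and 0 higher. Over the 10646 probe sets above background on 3 or more arrays, 4.87% lay outside in either direction, 251 lower and 267 higher. This split was noticed in the data, the sex of the mice is not in the labels, and its cause was not tested.

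Some markers of slow and type IIa fibres were also low on these arrays and on MCU knockout replicate 1, and others were not. The log2 of their summed level, to which the bright Myh2 and Myl3 contribute most, was 16.97, 16.53 and 16.32 in MCU knockout muscle, 16.40, 18.12 and 17.94 in MCUb knockout muscle and 17.67, 17.51 and 17.54 in control muscle. Of these 9 markers, 8 were above background on 3 or more arrays and 0 passed the adjusted test between MCU knockout and control muscle. They gave 4 lower and 5 higher values in MCU knockout muscle, with a median change of 0.19. At an unadjusted p under 0.05 there were 3 lower and 2 higher, against 5.35% and 4.76% of all probe sets. Lower were Casq2, the slow and cardiac calsequestrin, at −2.32 (unadjusted p 0.00106, adjusted p 0.204), and Myh2, the IIa myosin heavy chain, at −2.09 (unadjusted p 0.00817, adjusted p 0.349). The myosin light chains Myl2, at −2.0 (unadjusted p 0.00893, adjusted p 0.361), and Myl3, at −0.48, were lower too. Higher were the slow troponins Tnnt1 at 0.60 (unadjusted p 0.0451, adjusted p 0.48), Tnni1 at 0.63 and Tnnc1 at 0.40. The calcium pump Atp2a2, at 0.59 (unadjusted p 0.0265, adjusted p 0.436), and Myh7, the slow myosin heavy chain, at 0.19, were higher too. Of 5 fibroblast markers 4 were measured, all above background, with a median change of 0.70 between MCU knockout and control muscle. The groups overlapped in each, and the smallest adjusted p was 0.468. Of 4 macrophage markers measured, 1 was lower and 3 higher, from −1.25 to 0.80, with a median of 0.49 (smallest adjusted p 0.416). The part of these cell markers in the enzymes' values was not tested.

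**Figure D2:**
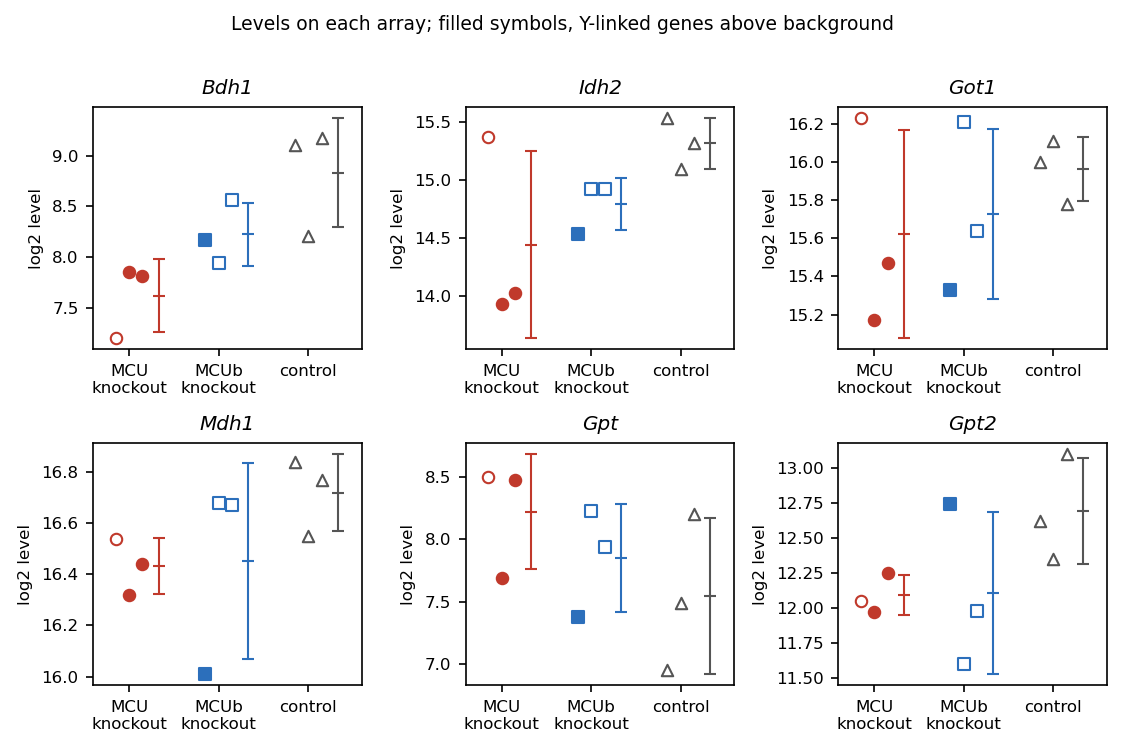
Log2 level (y axis) of selected members on each array, with MCU knockout, MCUb knockout and control from left to right. Error bars are mean ± SD (n = 3), and filled symbols mark the arrays with Y-linked genes above background. Bdh1 is lowest on the 3 MCU knockout arrays, while Idh2 is close to control on MCU knockout replicate 1 and low on the other 2.

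The enzymes in the core of the cycle differed little between MCU knockout and control muscle. Cs, citrate synthase, averaged 15.34 ± 0.10 in MCU knockout muscle and 15.48 ± 0.05 in control muscle, a log2 change of −0.14 (95% interval −0.50 to 0.21). The catalytic subunit Idh3a and the regulatory subunits Idh3b and Idh3g of the NAD-linked, calcium-activated isocitrate dehydrogenase differed by 0.10, −0.03 and 0.26. Ogdh, the catalytic subunit of oxoglutarate dehydrogenase, differed by 0.15, and Dld, the lipoamide dehydrogenase it shares with pyruvate dehydrogenase, by −0.05. Fh1, fumarase, and Mdh2, the mitochondrial malate dehydrogenase, differed by 0.12 and −0.07. None of these 8 had an adjusted p below 0.698. Without control replicate 3 the changes of Idh3b, Idh3g and Ogdh were 0.17, 0.05 and −0.03.

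The succinyl-CoA ligase subunits gave unlike values. Suclg1, the subunit shared by both forms of the enzyme, read 13.74, 13.59 and 13.72 in MCU knockout muscle, 13.37, 13.44 and 13.32 in MCUb knockout muscle and 13.35, 13.48 and 13.44 in control muscle. Every MCU knockout array lay above every other array, by a log2 change of 0.26 against control (SE 0.16, adjusted p 0.603). Suclg2, the GTP-forming partner, read 6.70, 6.0 and 6.95 in MCU knockout muscle, 7.03, 7.02 and 7.15 in MCUb knockout muscle and 6.95, 6.69 and 8.02 in control muscle. Control replicate 3 stood more than 1 log2 unit above the other 2 controls, and the change was −0.67 (SE 0.34, adjusted p 0.529). Without that array it was −0.27 (adjusted p 0.843).

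The 5 genes of pyruvate entry each had a 95% interval inside a 2-fold difference, and their changes between MCU knockout and control muscle ran from −0.23 to 0.18. Pdha1, the catalytic alpha subunit of pyruvate dehydrogenase and the target of its kinases, differed by −0.23, and its partner Pdhb by −0.06. Dlat, the acetyltransferase core, differed by 0.10 and Pdhx, which binds Dld to that core, by 0.13. Pcx, pyruvate carboxylase, which makes oxaloacetate from pyruvate, read 9.20, 8.26 and 8.24 in MCU knockout muscle and 8.13, 8.65 and 8.36 in control muscle. MCU knockout replicate 1 alone lay above the controls.

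The mean levels of the 2 alanine transaminases lay on opposite sides of the control mean, with neither past the adjusted test. Gpt2, the mitochondrial alanine transaminase, read 12.05, 11.97 and 12.25 in MCU knockout muscle, 12.74, 11.60 and 11.98 in MCUb knockout muscle and 12.62, 12.35 and 13.10 in control muscle. The MCU knockout arrays all lay below the controls, and the change was −0.60 (SE 0.29, 95% interval −1.24 to 0.04, adjusted p 0.517). Gpt, the cytosolic alanine transaminase, read 8.50, 7.69 and 8.48 in MCU knockout muscle, 7.38, 8.23 and 7.94 in MCUb knockout muscle and 6.95, 7.49 and 8.20 in control muscle. Its control values spread over more than 1 log2 unit and overlapped with the knockout values, at a change of 0.68 (SE 0.35, 95% interval −0.08 to 1.44, adjusted p 0.537). Got2, the mitochondrial aspartate transaminase, differed by 0.06 (95% interval −0.34 to 0.46). Prodh, proline dehydrogenase, and Aldh4a1, which completes proline's conversion to glutamate, differed by 0.19 and −0.12.

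Within MCU knockout muscle the arrays were not alike. Replicate 1 was the highest of its group in 22 of 28 members (78.6%), against 33.7% of probe sets above background on 3 or more arrays, and replicate 2 was the lowest in 20 (71.4%), against 35.2%. Replicate 1 is also the MCU knockout array with a low Y-linked level. Without it the members' median change from control was −0.11, with 19 lower and 9 higher, and the smallest adjusted p was 0.0525.

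**Figure D3:**
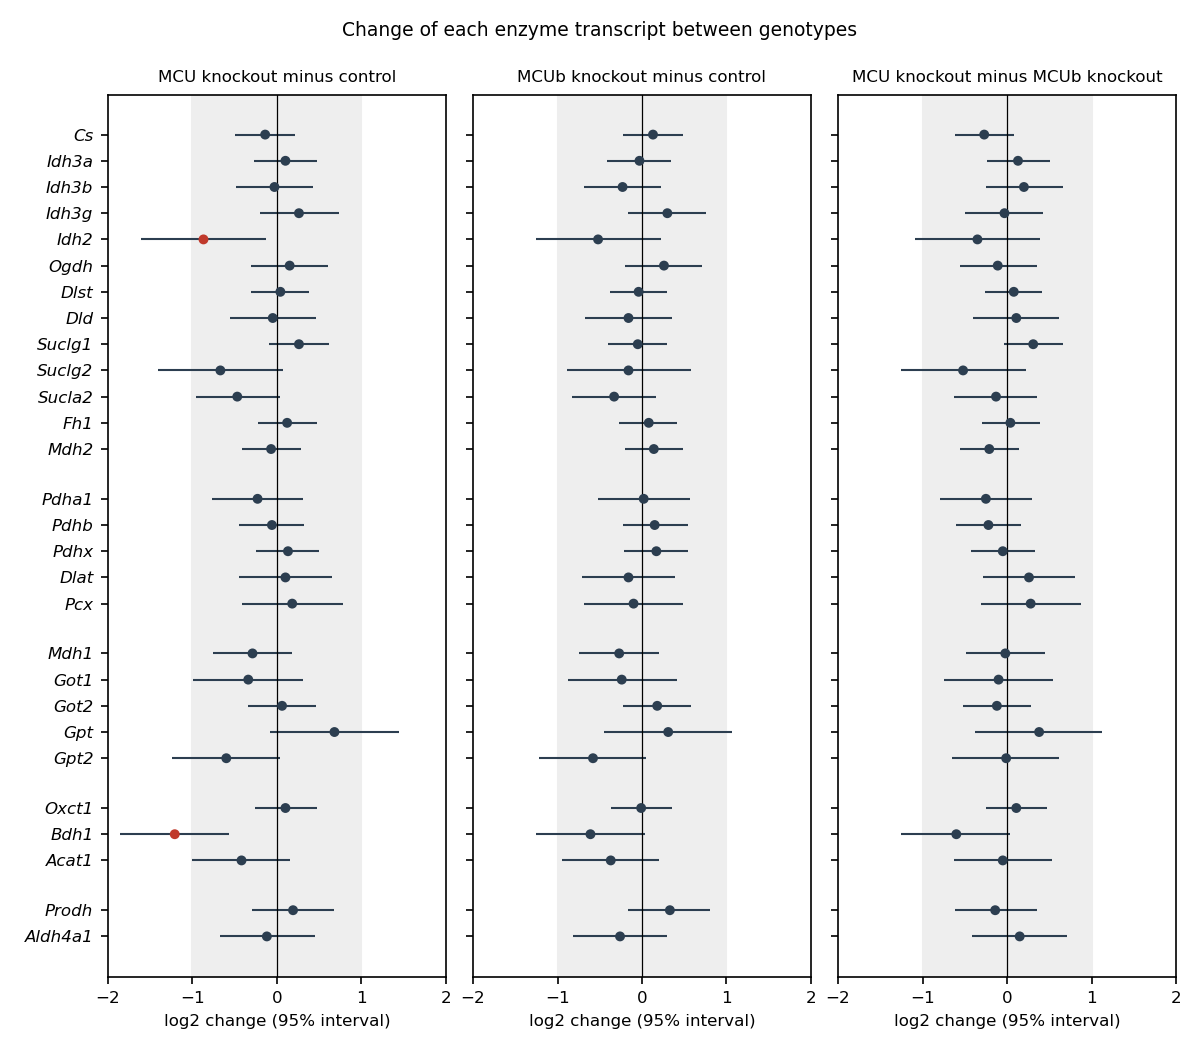
Log2 change of each measured member (x axis) with its 95% interval for MCU knockout against control, MCUb knockout against control and MCU knockout against MCUb knockout, with a grey band at a 2-fold difference either way. The Bdh1 and Idh2 intervals for MCU knockout against control, with red points, end below 0, and every other interval in the 3 comparisons includes 0.

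The second comparison asked the same of MCUb loss, using the same 3 control arrays, so its values are not independent of those above. None of the 28 members passed the adjusted test between MCUb knockout and control muscle, which called 0.0225% of all probe sets. At an unadjusted p under 0.05 there were 0 members, against 8.11% of all probe sets (4.21% lower, 3.9% higher). The median change was −0.04 (17 lower, 11 higher), against −0.03 over all probe sets. In 24 members (85.7%), again including Dlst and Sucla2 near background, the 95% interval lay inside a 2-fold difference. That compares with 79.7% of all probe sets and 71.6% of those above background on 3 or more arrays. The groups did not overlap in 4 members, or 14.3%, against 12.8% of all probe sets (7.02% lower, 5.73% higher). Idh2 and Sucla2 were the lower ones, Mdh2 and Prodh the higher ones. Sucla2 was near background, with its highest MCUb knockout value at 5.33 and its lowest control value at 5.36.

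Bdh1 gave the largest change of this comparison, −0.61 (SE 0.29, 95% interval −1.25 to 0.04, adjusted p 0.619), with means of 8.22 ± 0.31 in MCUb knockout muscle and 8.83 ± 0.54 in control muscle (SD, n = 3 each). Gpt2 differed by −0.58 (adjusted p 0.62), with MCUb knockout replicate 1 at 12.74 among the controls. Idh2 averaged 14.79 ± 0.22 in MCUb knockout muscle and 15.31 ± 0.22 in control muscle, a change of −0.52 (adjusted p 0.691). Mdh2 averaged 15.78 ± 0.07 in MCUb knockout muscle and 15.64 ± 0.06 in control muscle, and although the arrays separated, the change was 0.14 (95% interval −0.20 to 0.49). Prodh averaged 8.21 ± 0.21 in MCUb knockout muscle and 7.88 ± 0.07 in control muscle, a change of 0.33 (adjusted p 0.702). The calcium-activated dehydrogenase subunits Idh3a, Idh3b, Idh3g, Ogdh and Pdha1 differed by −0.03, −0.23, 0.30, 0.26 and 0.02, with adjusted p-values from 0.722 to 0.988. Without control replicate 3 the changes of Idh3b, Idh3g and Ogdh were −0.03, 0.09 and 0.08.

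The third comparison, between the knockouts, tests directly whether they differ. None of the 28 members passed the adjusted test, which called 0.158% of all probe sets, and 0 reached an unadjusted p under 0.05, against 5.7% of all probe sets (3.02% lower, 2.68% higher). The median change, MCU knockout minus MCUb knockout, was −0.04 (17 lower, 11 higher), against 0.01 over all probe sets. The interval lay inside a 2-fold difference in 24 members (85.7%), again including Dlst and Sucla2 near background. That compares with 84.1% of all probe sets and 76.2% of those above background on 3 or more arrays. The groups did not overlap in 5 members, or 17.9%, against 12.8% of all probe sets (6.19% lower, 6.59% higher).

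In that set Suclg1 was higher in MCU knockout muscle by 0.31 (SE 0.16, adjusted p 0.921). Cs differed by −0.27, with values of 15.45, 15.25 and 15.31 in MCU knockout muscle and 15.66, 15.64 and 15.52 in MCUb knockout muscle (95% interval −0.62 to 0.08). Mdh2, Suclg2 and Bdh1 were lower in MCU knockout muscle too, with differences of −0.21, −0.52 and −0.60. The Bdh1 difference had a 95% interval of −1.25 to 0.04 and an adjusted p of 0.903, so these arrays do not show that the knockouts differ in Bdh1, nor that they are alike.

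The enzymes were measured with small spread. Their median residual SD within groups was 0.255, against 0.323 for probe sets above background on 3 or more arrays. For the 12 members with a mean of at least 14 it was 0.152, against 0.171 for all 694 probe sets as bright. Fh1 spanned 0.23 log2 units over all 9 arrays and Mdh2 0.30, while Suclg2 spanned 2.02, Bdh1 1.98 and Idh2 1.60.

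Other genes of the same pathways, taken from lists of related enzymes, cofactor makers, transporters and regulators, held 0 genes past the adjusted test in every comparison. In the rest of the citrate cycle, 20 of 21 listed genes were measured, 17 of them above background on 3 or more arrays. There 1 was lower and 1 higher in MCU knockout than in control muscle at an unadjusted p under 0.05, against 5.35% and 4.76% of all probe sets. Sdhaf2, an assembly factor of succinate dehydrogenase, read 7.99, 9.12 and 8.75 in MCU knockout muscle and 9.55, 9.35 and 10.22 in control muscle, a change of −1.09 (adjusted p 0.345). Acly, the cytosolic citrate lyase that makes acetyl-CoA for lipid synthesis, read 10.99, 10.82 and 11.05 in MCU knockout muscle, 10.75, 10.94 and 10.83 in MCUb knockout muscle and 10.17, 10.33 and 10.59 in control muscle. All 6 knockout arrays lay above the 3 shared controls, by 0.59 in MCU knockout muscle (adjusted p 0.345) and 0.48 in MCUb knockout muscle (adjusted p 0.562). The dehydrogenase subunits Sdha and Sdhb themselves differed from control by −0.17 and 0.02 in MCU knockout muscle.

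Between MCUb knockout and control muscle, 4 genes of that list were lower and 2 higher at an unadjusted p under 0.05, against 4.21% and 3.9% of all probe sets, the largest being Pccb, a subunit of propionyl-CoA carboxylase, at −0.93 (adjusted p 0.53). Without control replicate 3, in which Pccb read 11.52 against 10.67 and 10.45 in the other controls, these counts were 2 lower and 2 higher (6.26% of all probe sets in both directions), and the Pccb change was −0.61.

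Oxoglutarate and pyruvate dehydrogenase need lipoate, whose synthesis needs iron-sulfur proteins. Of 12 listed cofactor genes 9 were measured. At an unadjusted p under 0.05, 1 was lower and 1 higher in MCU knockout than in control muscle, against 5.35% and 4.76% of all probe sets. In MCUb knockout muscle 0 were lower and 2 higher, against 4.21% and 3.9%. Between the knockouts 1 was lower and 0 higher, against 3.02% and 2.68%. The groups did not overlap in 2 genes for MCU knockout against control and 1 for MCUb knockout against control. The shares of all probe sets were 13.4% and 12.8%. Nfu1, an iron-sulfur carrier needed for lipoate synthesis, read 11.13, 11.28 and 11.29 in MCU knockout muscle, 11.92, 11.97 and 11.75 in MCUb knockout muscle and 11.58, 11.82 and 11.97 in control muscle. All MCU knockout arrays lay below all others, by −0.55 against control (SE 0.17, adjusted p 0.361) and −0.65 against MCUb knockout (SE 0.17, adjusted p 0.436). Lias, lipoate synthase, read 10.48, 10.38 and 10.10 in MCU knockout muscle, 10.33, 10.40 and 10.32 in MCUb knockout muscle and 9.28, 10.05 and 9.84 in control muscle. All 6 knockout arrays lay above the shared controls, by 0.60 in MCU knockout muscle and 0.63 in MCUb knockout muscle, with adjusted p-values of 0.412 and 0.535.

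Among the partners of the transaminases, 18 of 21 were measured, 11 of them above background on 3 or more arrays. At an unadjusted p under 0.05, 0 were lower and 2 higher in MCU knockout than in control muscle. The shares of all probe sets were 5.35% and 4.76%. Aspa, which splits N-acetylaspartate into aspartate and acetate, read 9.70, 9.49 and 9.47 in MCU knockout muscle, 8.68, 9.08 and 9.07 in MCUb knockout muscle and 8.68, 9.03 and 8.35 in control muscle. All 3 MCU knockout arrays lay above the rest, by 0.87 against control (SE 0.21, adjusted p 0.251). Slc25a12, the aspartate-glutamate carrier of muscle that cytosolic calcium activates, differed by −0.07. Among the ketone partners, 9 of 12 were measured, only 3 of them above background on 3 or more arrays. Slc16a1, a carrier of lactate and ketone bodies, was at −0.73 (adjusted p 0.394). It was the 1 gene of that list at an unadjusted p under 0.05, against 10.1% of all probe sets. Among the proline partners, 6 of 11 were measured, 4 of them above background on 3 or more arrays. P4ha1, a collagen prolyl hydroxylase, was likewise the 1 such gene at −0.72 (adjusted p 0.441).

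Transcription factors and coactivators known to drive oxidative genes were measured for 10 of 12 listed. Their median change was −0.48 in MCU knockout and −0.45 in MCUb knockout muscle against the shared controls, with 8 of 10 lower in each. Of all 22206 probe sets, 11641 and 11994 were lower. Esrrb, among the lower ones, was not above background on any array. At an unadjusted p under 0.05, 2 were lower and 1 higher in MCU knockout muscle, against 5.35% and 4.76% of all probe sets. In MCUb knockout muscle 2 were lower and 0 higher, against 4.21% and 3.9%. The regulators were more variable than the enzymes, with a median SE of 0.31 against 0.22. Without control replicate 3 the medians were −0.34 and −0.41. Esrrg, a nuclear receptor of oxidative muscle, read 6.71, 5.92 and 5.56 in MCU knockout muscle and 7.10, 7.48 and 6.61 in control muscle, a change of −1.0 (adjusted p 0.345). With the Y-linked covariate that change was −0.65 (adjusted p 0.682), and over only the arrays with a low Y-linked level it was −0.35 (adjusted p 0.983). Ppargc1b, a coactivator of such receptors, differed by −0.55 in MCU knockout muscle and −0.58 in MCUb knockout muscle (adjusted p 0.388 and 0.534). Its relative Ppargc1a differed by 0.11 and 0.21, and Tfam, which packages mitochondrial DNA, by 0.80 in MCU knockout muscle (adjusted p 0.467), where control replicate 3 read 8.01 against 9.14 and 9.52 in the other controls.

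**Figure D4:**
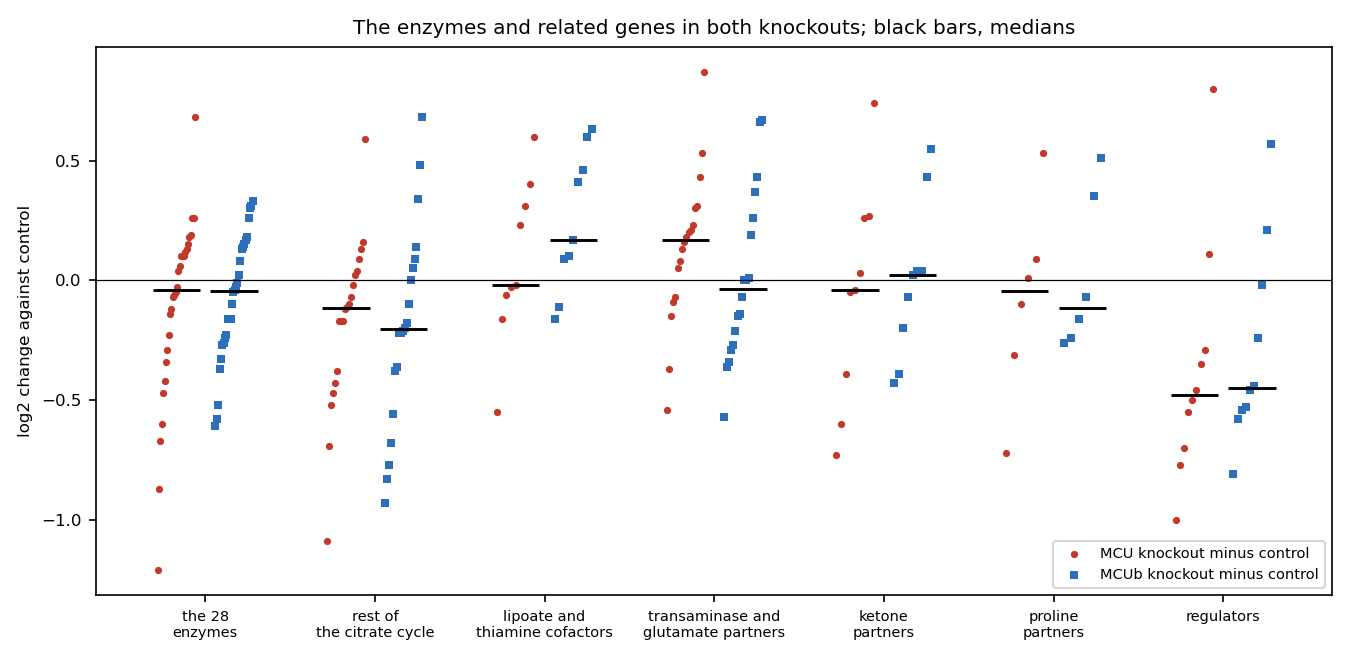
Log2 change of each gene (y axis) in the members and in the 6 related lists (x axis), with MCU knockout against control left of MCUb knockout against control and a bar at each median. The members centre near 0, and the regulators have lower medians, −0.48 and −0.45, against controls that the comparisons share. No regulator passed the adjusted test.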

How the data were processed

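RNA of 9 tibialis anterior samples was hybridised to Affymetrix Clariom S arrays. The authors deposited 1 value for each probe set on each array, read here as log2. The submitters' processing notes name Affymetrix Expression Console. Its version, summarisation, normalization and log base are not given in the sources used here, so every fold rests on reading the values (2.46 to 19.93) as log2, and how the normalization shaped them is not known.

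Of 28846 features, 6640 controls were left out and 22206 probe sets tested two-sided with lmFit and eBayes of limma 3.58.1 under R 4.3.3 (3 group means over 9 arrays, no covariate, 6 residual and 5.06 prior degrees of freedom). The Benjamini-Hochberg adjustment ran over all of them, with a threshold of 0.05. Platform annotation with symbols updated from RefSeq named 19572. Of several probe sets for 1 gene, the one with the highest mean was read. The number of arrays limits the precision. The code was tested on simulated data.

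The members, lists, tests and the naming rule were chosen with earlier results of these data known. All members are described, and those at an unadjusted p under 0.05 are given array by array. Related genes were drawn from those of smallest p per list and comparison, and not all of these are given. Kyat1 and Bola3 in MCUb knockout against control and Bcat1 between the knockouts are examples left out. Other genes and arrays were picked after their values were seen. The 20 alternatives covered filtering, scaling, the spread model, the samples fitted, a replicate block and the Y-linked level. Replicate numbers did not pair samples.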

Additional observations from a re-analysis of the deposited data

How the results depend on the processing

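No member passed the adjusted test under any of the 20 alternatives, except Bdh1 without control replicate 2. Leaving out each array in turn gave 0 to 1 members past it for MCU knockout against control and 0 to 0 in the other 2 comparisons. At an unadjusted p under 0.05, MCU knockout against control gave 2 members, and 2 to 6 when arrays were left out. The highest, 6 of 28, came without control replicate 2, where the share over all probe sets was 16.6%. This comparison gave 3 with an intensity trend and robust prior (10.2% of all probe sets), 3 with array quality weights (10.6%) and 3 with only the groups compared (8.1%). There were also 3 with the Y-linked covariate (7.68%) and 3 with values floored at the background limit (6.32%). MCUb knockout against control gave 0 members, and 0 to 3 when arrays were left out. The highest, 3, came without control replicate 2, where the share over all probe sets was 15%. It gave 1 with array quality weights (9.32% of all probe sets), 1 with only the groups compared (7.07%), 3 with the Y-linked covariate (7.5%), 1 with values floored at the background limit (5.08%) and 1 on the arrays with a low Y-linked level (5.03%). MCU knockout against MCUb knockout gave 0, and 0 to 1 when arrays were left out. It gave 1 after median centring (5.71% of all probe sets), 2 with an intensity trend and robust prior (5.44%), 1 with only the groups compared (7.71%), 1 with the covariate (5.45%), 3 with floored values (4.3%) and 1 on the low arrays (4.11%). Of the 28 members, 1 is 3.57%, 2 are 7.14% and 3 are 10.7%. The median change was −0.11 to 0.03 for MCU knockout against control when arrays were left out, −0.05 to −0.01 for MCUb knockout against control and −0.08 to 0.05 between the knockouts. On the low arrays, an alternative chosen after seeing the data that leaves 1 MCU knockout array (assumed to vary like the other groups), it was 0.14 for MCU knockout against control and 0.15 between the knockouts. The cause was not tested. Of the members' changes under alternatives, 1640 moved by less than the spread between replicates, 33 by more, and 1 came to pass. Several alternatives, among them filtering, an intensity trend and robust prior and the replicate block, refit the same group means. They cannot move a change, so these counts do not measure robustness.

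The replicate block gave 4 members at an unadjusted p under 0.05 for MCU knockout against control (Idh2, Suclg2, Gpt2 and Bdh1), or 14.3% against 9.73% of all probe sets, and 0 past the adjusted test. The numbers share no stated source: correlations of same-numbered deviations ran from −0.17 to 0.08. Over all probe sets the block called 24 for that comparison, against 31 without it.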
